A study of Ovis aries with 18 samples.

Results

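oar-miR-23a, oar-miR-23b and oar-miR-27a, the sheep forms of miR-23a, miR-23b and miR-27a, were followed as 3 rows of the deposited count table, chosen by name out of 364 features, of which 107 carry a miRNA name. All 3 passed the filter on low counts, as did 168 features in all. The libraries come from plasma of Polish Longwool ewes, all ovariectomized and carrying estradiol implants, kept on a high-fat diet for 14 weeks (OBESE, 6 ewes) or on a standard diet (CTRL, 6 ewes). Blood was taken at weeks 7, 10 and 14, and each diet and week gave 3 libraries, 18 in total. The labels do not tie a library to a ewe or say whether plasma was pooled, so a ewe may stand behind several libraries of a diet, and the p-values measure only how far these libraries scatter, which may be technical in part. The study concerned leptin resistance in obesity, and the comparisons below ask whether these miRNAs differ between the diets and over the weeks.

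miRNAs are short RNAs that, loaded into Argonaute proteins, repress messenger RNAs that pair with their seed, the bases near the 5′ end. In mammals miR-23a and miR-27a are cut, together with a miR-24, from a single primary transcript, and a paralogous transcript on another chromosome carries miR-23b and miR-27b. In sheep, by the RefSeq gene table of assembly ARS-UI_Ramb_v3.0, MIR23A and MIR27A lie on the same chromosome with 0 other genes of that table between them, and MIR23B lies on a different chromosome. Human miR-23a and miR-23b share their seed and differ near the 3′ end, so their target sets are largely the same. In mouse and human cells miR-27a represses PPARG, the master regulator of fat cell formation, and restrains the differentiation of fat cells. The clusters are also active in endothelium, and miR-23a is widely used in human plasma as a yardstick against which red cell miRNAs are set to grade red cell lysis.

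The 18 libraries held between 388574 and 1269829 counts and detected between 222 and 292 features each. Scaling factors between libraries, by the trimmed mean of M-values (TMM), lay between 0.653 and 1.19, and the lowest belonged to CTRL week 7 replicate 1 (0.653) and CTRL week 14 replicate 3 (0.718). Plasma carries miRNAs from many cells, and fewer cells of a type and less RNA per cell cannot be told apart in it. Of 8 miRNAs listed as red blood cell markers, miR-16b, miR-25 and miR-106b were counted and together took 42.9% to 51.6% of the counts in OBESE libraries and 44.2% to 55.2% in CTRL libraries, nearly all of it miR-16b. The other 5, miR-451 among them, were not analysed here.

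Together the 3 miRNAs made up between 0.0786% and 0.235% of a library's counts. miR-23a had a median of 563 counts per library (240 to 1530), miR-27a a median of 519.5 (246 to 1104) and miR-23b a median of 55 (20 to 148). By median count they stood in places 45, 49 and 102 of the 364 features. Levels are given as CPM, counts scaled to a common library total after the TMM factor.

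oar-miR-27a, whose mouse and human forms repress PPARG, was the steadiest of the 3. At week 7 OBESE replicates 1 to 3 had 837.5, 841 and 641 CPM, against 569.8, 743 and 774 CPM in CTRL replicates 1 to 3. At week 10 OBESE libraries had 718, 931 and 689.7 CPM, and CTRL libraries 717.5, 774 and 839.8. At week 14 OBESE libraries had 919.6, 839 and 754 CPM, and CTRL libraries 1065, 786 and 744. The diets overlapped at every week, with CTRL week 14 replicate 1 the highest and CTRL week 7 replicate 1 the lowest of all 18. Its standard deviation of log2 CPM over the 18 libraries was 0.206, against a median of 0.529 over the 168 features, and 7 features were steadier.

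oar-miR-23a, whose gene lies next to that of miR-27a, varied more. At week 7 OBESE replicates 1 to 3 had 1059.7, 885 and 689 CPM, against 556, 671 and 964 CPM in CTRL replicates 1 to 3. At week 10 OBESE libraries had 1084, 1291 and 845 CPM, and CTRL libraries 758, 980.2 and 949. At week 14 OBESE libraries had 786, 661 and 495 CPM, and CTRL libraries 753, 620.0 and 584. The diets overlapped at every week, and the lowest library was OBESE week 14 replicate 3. Its standard deviation of log2 CPM was 0.372, place 47 from the steadiest.

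oar-miR-23b, the paralog from the other cluster, was the scarcest, and its levels rest on few counts. At week 7 OBESE replicates 1 to 3 had 121, 69.7 and 72.9 CPM, against 78.8, 94.2 and 129.8 CPM in CTRL replicates 1 to 3. At week 10 OBESE libraries had 109.7, 97.9 and 59.5 CPM, and CTRL libraries 95.4, 144.8 and 79.1. At week 14 OBESE libraries had 89.0, 45.5 and 38.4 CPM, and CTRL libraries 91.0, 80.1 and 76.9. OBESE replicate 1 was the highest OBESE library at each week, and the 2 lowest values of all 18 were OBESE week 14 replicates 2 and 3. The diets overlapped at every week, as they did for miR-23a and miR-27a. Of the 168 features, 8.93% did not overlap between the diets at week 7, 13.1% at week 10 and 9.52% at week 14.

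**Figure D1:**
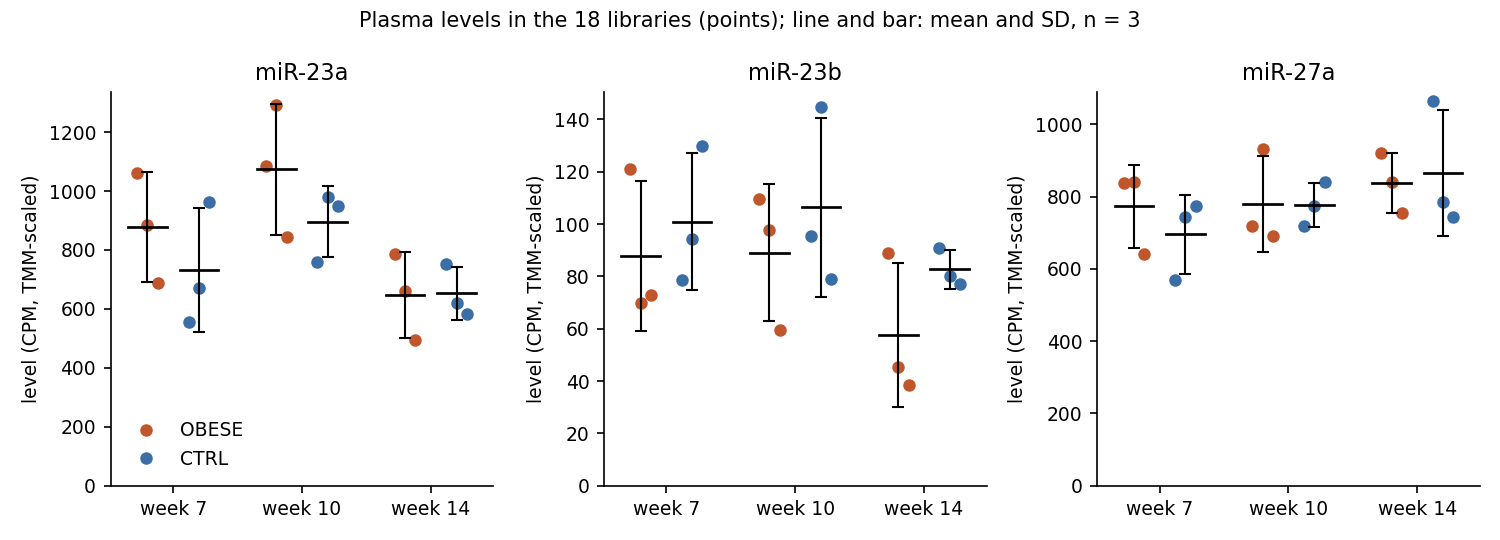
Levels of miR-23a, miR-23b and miR-27a in CPM (vertical axes, each from 0) by week, with OBESE libraries left of CTRL libraries. Points are libraries in replicate order, lines and bars are the mean and SD of 3. miR-23a lay between 495 and 786 CPM in the 6 week 14 libraries and between 758 and 1291 CPM in the 6 week 10 libraries.

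Set in order of group means, miR-23a ran from OBESE week 10 (1073 ± 223 CPM) through CTRL week 10 (896 ± 120.2), OBESE week 7 (878 ± 185), CTRL week 7 (731 ± 211) and CTRL week 14 (652 ± 89.1) to OBESE week 14 (647 ± 146; SD, n = 3 each). miR-23b ran from CTRL week 10 (106.4 ± 34.2 CPM) through CTRL week 7 (100.9 ± 26.2), OBESE week 10 (89.0 ± 26.3), OBESE week 7 (87.9 ± 28.7) and CTRL week 14 (82.7 ± 7.39) to OBESE week 14 (57.6 ± 27.4). miR-27a ran from CTRL week 14 (865 ± 174 CPM) through OBESE week 14 (838 ± 82.7), OBESE week 10 (779.8 ± 132), CTRL week 10 (777 ± 61.2) and OBESE week 7 (773 ± 115) to CTRL week 7 (696 ± 110.1). In all 3 orders every pair of neighbours differed by less than the larger of their SDs.

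Between the diets, averaged over weeks, none of the 3 passed the test. miR-23a averaged 866 ± 246 CPM over the 9 OBESE libraries, against 759.6 ± 168 over the 9 CTRL libraries (SD), and its log2 fold change was 0.17 (95% interval -0.14 to 0.48, edgeR adjusted p = 0.574). miR-23b averaged 78.2 ± 28.4 CPM in OBESE, against 96.7 ± 24.4 in CTRL, with a log2 fold change of -0.32 (-0.78 to 0.15, edgeR adjusted p = 0.55). Its fitted value was negative at each of the 3 weeks, but the sign at weeks 7 and 10 was not stable. At week 7 it turned to 0.018 with no scaling factor and to 0.028 without CTRL replicate 3, and at week 10 to 0.073 without CTRL replicate 2 and to 0.019 without OBESE replicate 3. miR-27a averaged 797 ± 101 CPM in OBESE, against 779.1 ± 130.1 in CTRL, with a log2 fold change of 0.04 (-0.22 to 0.29, edgeR adjusted p = 0.946). Of the 168 features, 0 were called in this comparison (0%), with 19 at an unadjusted p under 0.05 (11.3%). DESeq2, run without the filter on low counts (363 features with a p-value), called 2 and limma-voom 0. Neither of the DESeq2 calls was one of the 3 miRNAs.

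At single weeks the log2 fold change was 0.27, 0.26 and -0.01 for miR-23a, -0.20, -0.25 and -0.50 for miR-23b and 0.15, 0.00 and -0.05 for miR-27a at weeks 7, 10 and 14. The sign at week 14 turned with no scaling factor for miR-23a (0.13) and miR-27a (0.082), and for both without CTRL week 14 replicate 1 (0.086 and 0.11). edgeR called 0 of 168 (0%) at each single week and in the interaction of diet and week. At an unadjusted p under 0.05 stood 9 features (5.36%) at week 7, 11 (6.55%) at week 10, 13 (7.74%) at week 14 and 7 (4.17%) in the interaction. DESeq2 and limma-voom also called 0 in these 4 comparisons. The smallest unadjusted p of the 3 miRNAs at a single week was 0.205, for miR-23b at week 14 (SE of its log2 fold change 0.382).

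**Figure D2:**
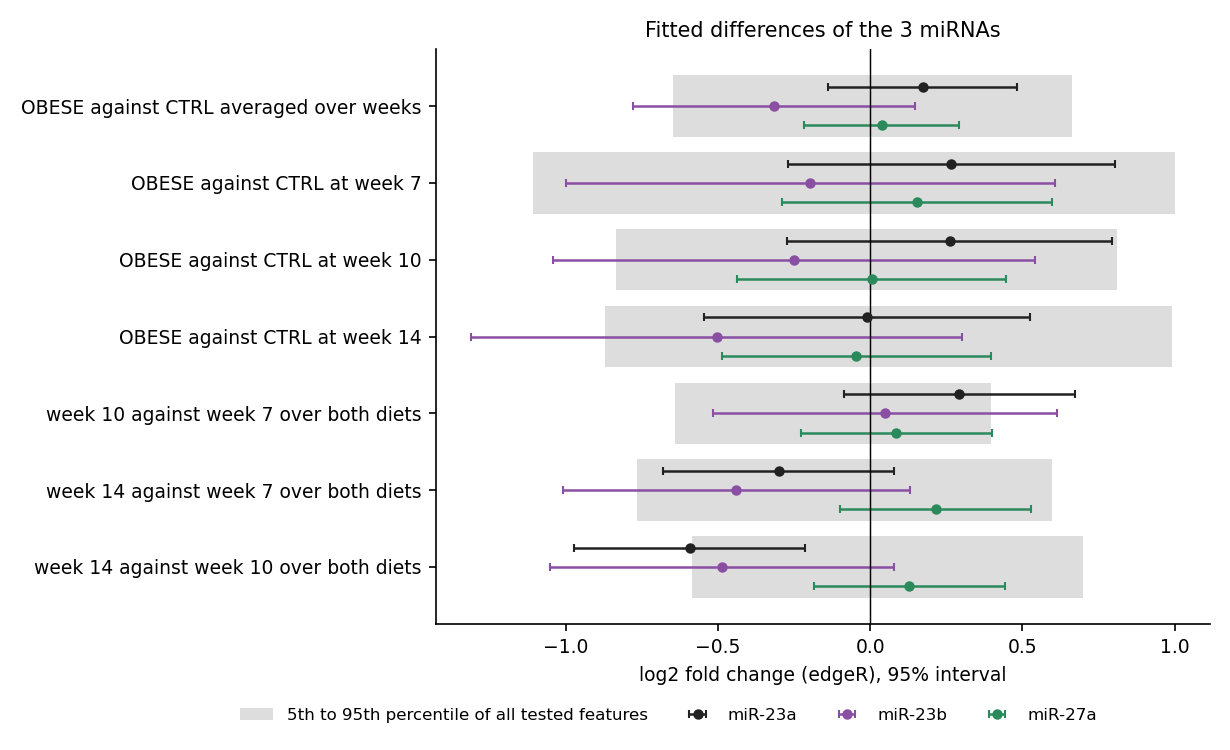
Log2 fold changes of miR-23a, miR-23b and miR-27a (points) with 95% intervals in 7 comparisons, over the range from the 5th to the 95th percentile of the 168 features (grey bars). Every interval between the diets includes 0, and miR-23a at week 14 against week 10 is the only interval drawn that does not.

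Of 5 miRNAs listed for the clusters, miR-24 and miR-27b were not analysed here. The 3 counted had 2 positive and 1 negative log2 fold change between the diets, with a median of 0.04, against a median of -0.00218 over all 168 features, 48.8% of which lay above 0. Dropping the TMM factor moved that overall median to 0.16, so directions hold relative to the median feature. Of 10 miRNAs listed for fat tissue and insulin, 9 were tested, and 6 were positive and 3 negative with a median of 0.02. Of 10 listed for vessels, 6 were tested, with 4 positive, 2 negative and a median of 0.03. All 3 tested red cell miRNAs were negative, miR-16b at -0.28, miR-25 at -0.21 and miR-106b at -0.40. Of 7 miRNAs listed for platelets, 3 were tested, with 2 positive, 1 negative and a median of 0.06. Of 2 listed for lymphocytes, only miR-150 was tested, and it had 0.38. No member of these lists passed the test after adjustment.

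The proportion of miR-23a to miR-23b, which needs no scaling between libraries, differed between the diets when each library was taken as a unit. With counts summed over weeks by replicate number the difference was 2.79 points and did not pass (exact permutation p = 0.2). There 3 values against 3 cannot give a p below 0.1, as given below. In OBESE libraries miR-23a made up 91.8% ± 1.57 of the pair's counts, and in CTRL libraries 88.6% ± 1.52 (SD, n = 9 each), so that 11.6 ± 2.35 counts of miR-23a fell on each count of miR-23b in OBESE and 7.99 ± 1.57 in CTRL libraries. At week 7 the share was 89.8%, 92.7% and 90.4% in OBESE replicates 1 to 3 and 87.6%, 87.7% and 88.1% in CTRL replicates 1 to 3. At week 10 it was 90.8%, 93.0% and 93.4% in OBESE and 88.8%, 87.1% and 92.3% in CTRL libraries. At week 14 it was 89.8%, 93.6% and 92.8% in OBESE and 89.2%, 88.6% and 88.4% in CTRL libraries. The diets did not overlap at weeks 7 and 14, and at week 10 they overlapped through CTRL replicate 3 alone. In levels, 8.93% of the 168 features did not overlap between the diets at week 7 and 9.52% at week 14. How many other ratios to miR-23a did not overlap at these weeks was not counted. OBESE replicate 1 had the lowest OBESE share at each week.

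The difference averaged over weeks was 3.16 percentage points (two-sided exact permutation test over all 8000 ways to reassign the diet within weeks, p = 0.00125, Benjamini-Hochberg adjusted p = 0.00375 over 3 ratios). Within single weeks it was 3.15, 2.97 and 3.35 points at weeks 7, 10 and 14, with exact p of 0.1, 0.2 and 0.1, where 0.1 is the smallest that 3 libraries against 3 can give. Without CTRL week 10 replicate 3 the difference was 3.64 points (exact p = 0.00025). With counts summed over weeks by replicate number, so that libraries that may share ewes form 1 value, the shares were 90.3%, 93.0% and 92.2% in OBESE and 88.8%, 87.8% and 90.6% in CTRL, a difference of 2.79 points that did not pass (exact p = 0.2, smallest possible 0.1). A ratio to miR-23a gave an exact p under 0.05 between the diets for 22 of the 167 other features (13.2%), and 28 of the 167 had a more negative log2 difference than miR-23b at -0.53. At this threshold a shift against miR-23a between the diets was thus not particular to miR-23b. How many other ratios had an exact p as low as 0.00125 was not counted.

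Each share carries a counting error as well. It was widest in CTRL week 7 replicate 1, where 240 of 274 counts were miR-23a (87.6%, exact Clopper-Pearson 95% interval 83.1% to 91.3%), and narrowest in OBESE week 10 replicate 2, where 1530 of 1646 were (93.0%, 91.6% to 94.1%). These intervals cover counting error only. How the authors assigned reads that match both members of the pair is not given in the sources used here, and its part in the share was not tested. The counts of miR-23b were even numbers in 17 of 18 libraries, and those of miR-23a in 14. Whether reads of either were counted more than once was not tested; unequal counting of the pair would shift the share and the proportions themselves. The summed red cell miRNAs overlapped between the diets, as given above, and their part in the share was not tested.

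**Figure D3:**
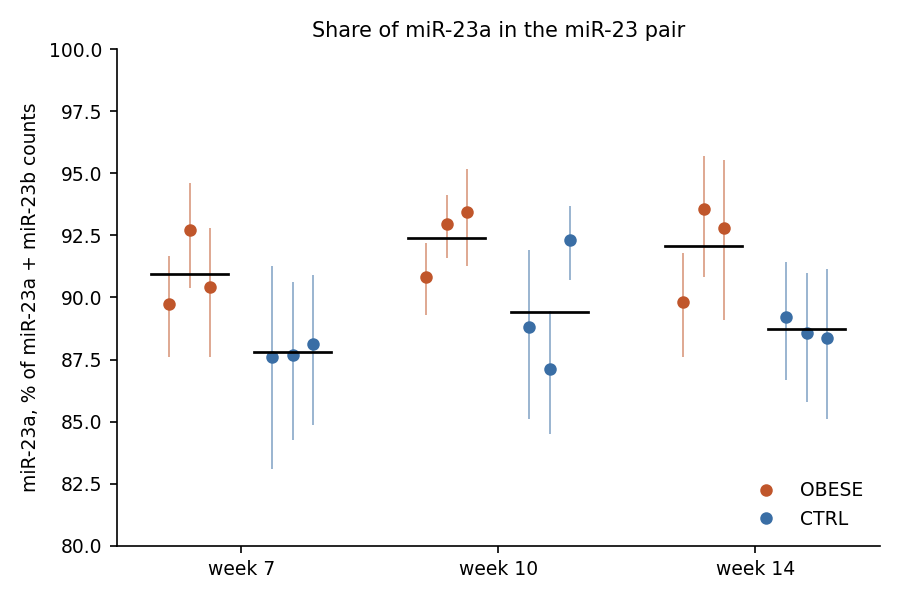
Share of miR-23a in the summed counts of miR-23a and miR-23b, in percent (vertical axis from 80 to 100), by week, with OBESE libraries left of CTRL libraries. Points are libraries in replicate order with exact 95% counting intervals, and black lines are means of 3; 92.3% in CTRL week 10 replicate 3 is the only CTRL value above 90%.

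miR-27a and miR-23a, cut from a common transcript in mammals though this was not tested in these sheep, parted in their ratio at week 14. The ratio of their counts averaged 0.934 ± 0.123 at week 7, 0.804 ± 0.104 at week 10 and 1.32 ± 0.127 at week 14 (SD, n = 6 each, both diets). At week 7 it was 0.79, 0.95 and 0.929 in OBESE replicates 1 to 3 and 1.03, 1.11 and 0.803 in CTRL replicates 1 to 3. At week 10 it was 0.663, 0.722 and 0.816 in OBESE and 0.947, 0.789 and 0.885 in CTRL libraries. At week 14 it was 1.17, 1.27 and 1.52 in OBESE and 1.41, 1.27 and 1.27 in CTRL libraries. The 6 libraries of week 14 lay above the 12 of the other weeks without overlap, in both diets.

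The ratio rose by 0.50 on the log2 scale at week 14 against week 7 and by 0.72 at week 14 against week 10 (two-sided exact permutation test over all 400 ways to reassign the weeks within diets, p = 0.005 each, the smallest these permutations can give; adjusted p = 0.0225 each over 9 comparisons). These week comparisons were added after the values were seen. In single diets the log2 difference against week 7 was 0.57 in OBESE and 0.44 in CTRL, and against week 10 it was 0.85 in OBESE and 0.60 in CTRL. Each of these had an exact p of 0.1, the smallest possible. Week 10 against week 7 differed by -0.22 (exact p = 0.065, adjusted p = 0.146). Averaged over weeks the diets differed by -0.13 on the log2 scale, with a mean log2 ratio of -0.08 in OBESE and 0.05 in CTRL libraries (exact p = 0.116, adjusted p = 0.119). The unadjusted p fell under 0.05 without CTRL week 7 replicate 3 (-0.17, exact p = 0.0325) or without OBESE week 14 replicate 3 (-0.16, exact p = 0.03375).

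Among the 167 other features, miR-27a was the 1 feature whose ratio to miR-23a lay higher in all week 14 libraries than in all libraries of weeks 7 and 10 (0.599%), and 0 lay lower. Set against miR-27a, 2 of 167 features were lower without overlap at week 14 (1.2%), miR-23a and unnamed miRNA 30, a row with a running number and no name. In size the rise was not exceptional. From the highest, miR-27a held place 44 of 167 for week 14 against week 7, where 9 ratios to miR-23a (5.39%) had an exact p under 0.05. It held place 61 for week 14 against week 10, where 67 did (40.1%).

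**Figure D4:**
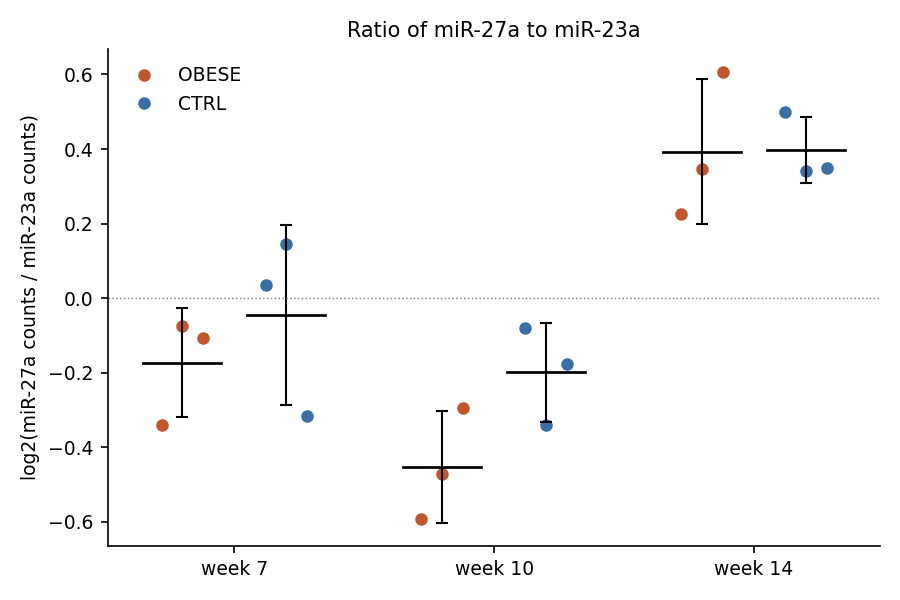
Log2 ratio of miR-27a counts to miR-23a counts by week, with OBESE libraries left of CTRL libraries; 0 marks equal counts. Points are libraries in replicate order, lines and bars are the mean and SD of 3. All 6 week 14 libraries lie at or above 0.23, and the 12 others at or below 0.15.

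In the fit of the 6 groups neither level passed the test by itself. Over both diets miR-23a had a log2 fold change of -0.59 at week 14 against week 10 (95% interval -0.97 to -0.21, unadjusted p = 0.00423, edgeR adjusted p = 0.118), place 6 of 168 by p. Its log2 fold change was -0.30 against week 7 (-0.68 to 0.08, edgeR adjusted p = 0.855). miR-27a had 0.13 against week 10 (-0.18 to 0.44, edgeR adjusted p = 0.845) and 0.21 against week 7 (-0.10 to 0.53, edgeR adjusted p = 0.93). miR-23b had the sign of miR-23a, with -0.49 against week 10 (edgeR adjusted p = 0.514) and -0.44 against week 7 (edgeR adjusted p = 0.855). edgeR called 4 of the 168 features (2.38%) at week 14 against week 10, all lower at week 14 and none of them miR-23a, miR-23b or miR-27a, and 0 (0%) at week 14 or week 10 against week 7. At an unadjusted p under 0.05 stood 18 (10.7%), 8 (4.76%) and 4 (2.38%) of them. DESeq2 called 4, 0 and 0 in these comparisons, and limma-voom 4, 0 and 0. With 1 library left out the 4 calls became 0 or 1 in 10 of 18 cases. These were OBESE week 7 replicate 3, week 10 replicate 2 and week 14 replicates 1 to 3, and CTRL week 7 replicate 1, week 10 replicates 2 and 3, and week 14 replicates 1 and 3.

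Within single diets, the log2 fold change at week 10 against week 7 was 0.29 in OBESE and 0.30 in CTRL for miR-23a, 0.02 in OBESE and 0.07 in CTRL for miR-23b, and 0.01 in OBESE and 0.16 in CTRL for miR-27a. At week 14 against week 7 it was -0.44 in OBESE and -0.16 in CTRL for miR-23a, -0.59 in OBESE and -0.29 in CTRL for miR-23b, and 0.12 in OBESE and 0.31 in CTRL for miR-27a. Each of these 4 comparisons gave 0 calls among 168 features (0%) by edgeR and limma-voom. DESeq2, run without the filter on low counts, also gave 0. Features at an unadjusted p under 0.05 numbered 7 (4.17%) and 13 (7.74%) at weeks 10 and 14 in OBESE, and 3 (1.79%) and 6 (3.57%) in CTRL.

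Among the listed blood cell miRNAs, miR-150, a marker of lymphocytes, was one of the 4 features called at week 14 against week 10 (log2 fold change -1.85, edgeR adjusted p = 0.0316), a call it kept in 17 of 27 settings (adjusted p 8.44e-05 to 0.102). It took 0.175% to 1.27% of the counts at week 7, 0.395% to 2.71% at week 10 and 0.187% to 0.418% at week 14. At weeks 7, 10 and 14 the 3 platelet miRNAs took 2.13% to 4.81%, 3.23% to 5.67% and 2.43% to 4.42%, and the red cell miRNAs 43.7% to 54.1%, 42.9% to 50.3% and 44.2% to 55.2%. Their part in the ratio of miR-27a to miR-23a was not tested. The labels give no extraction or sequencing batch, so any handling that went with the week of sampling and the week itself cannot be told apart.

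miR-16b, the dominant miRNA of these libraries, was set against miR-23a in place of miR-451. Its count was 554 ± 224 times that of miR-23a in OBESE and 756 ± 381 times in CTRL libraries (SD, n = 9 each), from 330.2 in OBESE week 10 replicate 1 to 1486 in CTRL week 7 replicate 1. The diets differed by -0.41 on the log2 scale, with means of 9.01 in OBESE and 9.43 in CTRL libraries, which did not pass (exact permutation within weeks, p = 0.119, adjusted p = 0.119). The log2 ratio averaged 9.32 ± 0.744 at week 7, 8.80 ± 0.321 at week 10 and 9.54 ± 0.526 at week 14 (SD, n = 6 each). It was higher at week 14 than at week 10 by 0.74 (exact permutation within diets, p = 0.015, adjusted p = 0.045 over 9 comparisons). With the replicate block this did not pass, as given in the section on processing. Between these weeks the log2 fold change was -0.59 for miR-23a and 0.17 for miR-16b. Of the 167 ratios to miR-23a, 67 (40.1%) had an exact p under 0.05 there. Week 14 against week 7 gave 0.22 (exact p = 0.535, adjusted p = 0.602).

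The miRNAs most like each of the 3 were taken as those whose log2 ratio to it had the smallest SD over the 18 libraries, a measure that counting noise widens for scarce features. For miR-23a the closest named miRNAs were miR-191 (SD 0.27), miR-29a (0.308) and miR-10a (0.323), while miR-27a was the fifth (0.35) and miR-23b the sixth (0.369) of 53. For miR-23b the closest of all 167 features was miR-23a (0.369), followed among named ones by miR-10a (0.44) and miR-221 (0.449), and miR-27a came ninth (0.489). For miR-27a the closest named miRNAs were let-7a (0.221), let-7d (0.243) and miR-30a-3p (0.256). Its cluster partner miR-23a held place 14 of 53 (0.35) and miR-23b place 27 (0.489). The median SD over all features was 0.667 for miR-23a, 0.686 for miR-23b and 0.561 for miR-27a. Beside each of the 3, 0 other features stayed within 10% of its count in all 18 libraries.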

How the data were processed

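Small RNA libraries from 200 µL of plasma were made with the QIAseq miRNA kit and read as single reads of 76 nucleotides on an AVITI instrument, per the labels' protocols, which name deduplication by molecular identifiers. Per the submitters' processing notes the tools were cutadapt 4.9, Bowtie 1.3.1 and DESeq2 1.42, with no role stated for any. For the genome build, the annotation and reads matching several miRNAs, the sources used here give nothing. The authors deposited raw counts per miRNA for each library and as 1 table, which differed in 0 values. Whether they are molecules or reads is not stated.

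Features were filtered with filterByExpr (minimum count 10, minimum total 15), scaled by TMM and fitted in edgeR 4.0.16 (R 4.3.3) by quasi-likelihood, all 18 libraries in 6 groups, with Benjamini-Hochberg adjustment over 168 features and a threshold of 0.05. The SE is the log2 fold change over the square root of F, and is approximate. DESeq2 1.42.0, without the filter on low counts, and limma 3.58.1, with it, were alternatives. So were other scaling, no filter, a replicate block and leaving out each library. In edgeR the block was a term for the replicate number, shared by both diets unless nested in diet. For ratios it was an exact sign-flip test on differences within pairs of equal number. Comparisons of weeks over both diets were added after values were seen. Ratios used raw counts and exact permutation over libraries (NumPy 2.4.6, SciPy 1.17.1), with 0.5 added to the counts only where ratios of all features were compared. On simulated counts edgeR recovered 76.3% of 2-fold and 97.5% of 4-fold changes for the averaged diet difference, over a mean of 164.95 features per run, with 3.68% false calls. The corresponding values at week 7 were 27.0% and 73.7%, with 3.86% false calls. For week 14 against week 7 over both diets they were 62.5% and 93.4%, with 4.04% false calls. Simulated libraries were drawn independently of each other, so these values do not cover libraries that share ewes over weeks.

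Named miRNAs are the 3 rows, the red cell and cluster lists, and for each row the 3 named features closest by the SD of the log2 ratio (log2 CPM, prior count 2); unnamed miRNA 30 and miR-150 were added after their values were seen. The rows and lists were chosen with earlier results of these data known.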

Additional observations from a re-analysis of the deposited data

Results flagged for a closer look

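Of 30 sets of libraries examined (6 measures in libraries pooled by diet or by week), 1 held a library far from the others, where chance alone marks about 1 in 20. The share of miR-23a in the pair was 92.3% in CTRL week 10 replicate 3, and the other 8 CTRL libraries lay between 87.1% and 89.2%. The gap to the nearest of them took 0.597 of the whole range, above the limit of 0.493 for 9 samples. That library was the deepest of the 18, with 1269829 counts, and its share rests on 1300 counts of the pair (exact 95% interval 90.7% to 93.7%). CTRL replicate 3 had 88.1% at week 7 and 88.4% at week 14.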

How the results depend on the processing

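Without any one library the share of miR-23a in the pair stayed 2.78 to 3.64 points higher in OBESE (exact p 0.00025 to 0.00375), and the ratio of miR-27a to miR-23a stayed 0.436 to 0.551 (log2) higher at week 14 than at week 7 and 0.667 to 0.762 higher than at week 10 (exact p at most 0.01). The share difference did not pass with counts summed over weeks by replicate number (2.79 points, exact p = 0.2) or at week 7 (3.15), 10 (2.97) or 14 (3.35) alone, where p cannot go below 0.1. The labels do not say what replicate numbers mean. Deviations of equal numbers correlated at -0.0245 to 0.692 in OBESE (median 0.386) and 0.0138 to 0.497 in CTRL (median 0.322). Different numbers within a diet had medians of -0.172 in OBESE and -0.168 in CTRL. Deviations were taken from the group mean, so positive values for equal numbers by themselves push those for different numbers below 0. In each diet 9 pairs had equal and 18 had different numbers. Because the labels name no pairs and not every equal-number value was high, the numbers were not taken as pairs. Yet 17 of 18 libraries lay closest to their own number, a hint from the data and not the design. Libraries of a diet may therefore not be independent. With the replicate block, the share at week 14 against week 7 (1.01 points) had exact p = 0.03125, the smallest that 64 sign assignments can give. Without the block it did not pass (exact permutation within diets, p = 0.135, adjusted p = 0.174 over 9 comparisons). By the same sign-flip test the ratio of miR-27a to miR-23a had exact p = 0.03125 at week 14 against week 7 and against week 10. For miR-16b to miR-23a at week 14 against week 10 (0.74) it gave exact p = 0.0625. In edgeR with the block, miR-27a at week 10 between the diets was -0.00520 (log2, as for all the following single values), and 1 feature was called at week 14 against week 7. With the block nested in diet, 7 were called at week 14 against week 10, where miR-23a also passed (-0.59, edgeR adjusted p = 0.0425, against 0.0743 to 0.371 without single libraries). Calls for diet averaged over weeks were 4 with no filter and 2 by DESeq2, and 0 to 2 without single libraries (1 without OBESE week 7 replicate 2 or CTRL week 14 replicate 2, 2 without OBESE week 10 replicate 1); at week 14 they were 0 to 1. At week 14 against week 10 calls were 0 with no scaling factor, 0 without both CTRL libraries of low TMM factor and 0 to 5 without single libraries, and at week 14 against week 7, 1 with no filter. Signs turned with no scaling factor for miR-23b at week 7 (0.018, where the median feature stood at 0.251), miR-23a at week 14 (0.13) and miR-27a at week 14 (0.082; median feature 0.147), by limma-voom for miR-27a at week 10 (-0.011), and without both low-TMM libraries for miR-27a averaged (-0.035) and at week 7 (-0.031), for week 10 against week 7 in CTRL for miR-23b (-0.12) and miR-27a (-0.012), and over both diets for miR-23b (-0.024). Without single libraries the diet values ran, for miR-27a, from -0.051 to 0.091 averaged, -0.0042 to 0.26 at week 7, -0.11 to 0.15 at week 10 and -0.24 to 0.11 at week 14, for miR-23b from -0.59 to 0.028 at week 7 and -0.42 to 0.073 at week 10, and for miR-23a from -0.20 to 0.086 at week 14. Week 10 against week 7 ran in OBESE from -0.050 to 0.44 for miR-23b and -0.063 to 0.28 for miR-27a, in CTRL from -0.22 to 0.30 for miR-23b, and over both diets from -0.076 to 0.26 for miR-23b. Week 14 against week 7 ran from -0.011 to 0.26 for miR-27a in OBESE and -0.28 to 0.088 for miR-23a in CTRL. Ratios ran from -0.17 to -0.10 for miR-27a to miR-23a between the diets (exact p 0.0325 to 0.24) and -0.28 to -0.17 at week 10 against week 7, from -0.72 to -0.29 for miR-16b to miR-23a at week 10 against week 7, and for the share, in points, from 0.802 to 2.10 at week 10 against week 7, 0.632 to 1.56 at week 14 against week 7 and -1.09 to 0.205 at week 14 against week 10. The cause of these changes was not tested. Counts of miR-23b, as low as 20 in a library, limit the precision of its level and of the share.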

Other observations

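Beside the even counts of miR-23b in 17 of 18 libraries and of miR-23a in 14, those of miR-27a were even in 8. Among the 112 features with at least 10 counts in every library, the median was 9 libraries with an even count, in a range from 4 to 17. As many as 17 were reached by 2 features, miR-23b and unnamed miRNA 223, and 16 by unnamed miRNAs 9 and 229. This was noticed after the counts were seen. Their part in the miR-23a share, in the ratio of miR-23a to miR-23b and in the counting intervals was not tested.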
